A study of Mus musculus with 3 samples.

Results

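The let-7 guide strands nearest in sequence to let-7a-5p are let-7a-5p itself and let-7c-5p, let-7e-5p and let-7f-5p, each of which differs from it at 1 base over the first 22 nt. These 4 were taken from the 9 let-7 guide strands (let-7a to let-7g, let-7i and miR-98) and from 404 miRNA strands with reads in all. The rule that picks them uses sequence and no read count. The small RNAs came from livers of C57BL/6 mice, an inbred strain, taken 4 weeks after they received scAAV9, an adeno-associated virus vector with a self-complementary genome that can carry genes into liver cells. In the TuD-let-7 group the vector expressed a Tough Decoy against let-7, in the TuD-miR-122 group a Tough Decoy against miR-122, and in the mock group no decoy. A Tough Decoy is a hairpin RNA made in the cell that holds open binding sites for a miRNA. Each group had 1 library, the sources used here do not give the number, age or sex of the mice, and no difference has a replicate check, so no test was made. Intervals reflect counting error alone.

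The let-7 miRNAs are among the most conserved and most abundant miRNAs of adult tissues. They repress growth genes such as Hmga2, Lin28 and the Ras genes, and they accumulate as cells differentiate; in liver they are also tied to glucose metabolism. A miRNA finds its targets mainly through its seed, and its 3′ end can be shortened by exonucleases or extended by terminal transferases that add adenosine or uridine. Binding to a target with extensive pairing is known to be accompanied by such 3′ changes.

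The mature sequences show what the 4 guides share. They are given 5′ to 3′ from RefSeq (GRCm38.p6), with the seed, bases 2 to 8, in capitals. All 4 guides, and the other 5 let-7 guides, have the seed GAGGUAG.
let-7a-5p: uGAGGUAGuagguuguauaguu
let-7c-5p: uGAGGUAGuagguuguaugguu
let-7e-5p: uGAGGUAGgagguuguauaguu
let-7f-5p: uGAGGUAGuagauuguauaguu

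The place of the differing base sets how each guide could be counted, so the 3 sequences are repeated with that base alone in capitals. Numbering starts at the 5′ base as 1; the letter before the number is let-7a-5p's base, the letter after it that of the other guide, and T stands for U.
let-7c-5p, A19G: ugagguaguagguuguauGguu
let-7e-5p, T9G: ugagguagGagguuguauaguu
let-7f-5p, G12A: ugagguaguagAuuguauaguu

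The base that marks let-7c-5p lies near the 3′ end, those of let-7e-5p and let-7f-5p just past the seed and in the centre. An insert of let-7a-5p or let-7c-5p cut back to 18 matching nt or fewer can therefore not be given to either of them. Their genes are placed here in GRCm38. Mirlet7a-1 (chromosome 13, 48538179 to 48538272) and Mirlet7f-1 (chromosome 13, 48537829 to 48537917) are neighbours on the minus strand and lie in exons of 6720427I07Rik, a long noncoding RNA. Mirlet7a-2 lies on chromosome 9 (41536716 to 41536811) in introns of the noncoding RNAs 3110039I08Rik and Gm49317. Mirlet7c-1 lies in an intron of the noncoding RNA Mir99ahg on chromosome 16 (77599657 to 77599750), and Mirlet7c-2 in an exon of Lncppara on chromosome 15 (85706603 to 85706697). Mirlet7e lies in an intron of Spaca6 on chromosome 17 (17830352 to 17830444), and Mirlet7f-2 in an intron of Huwe1 on chromosome X (151912346 to 151912428). These last 5 genes are on the plus strand.

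The TuD-let-7 library held 2066892 reads, the TuD-miR-122 library 3681585 and the mock library 3450317, of which 72.0% to 78.5% were assigned to miRNAs. Levels are RPM, reads per 1000000 of those miRNA reads that lie outside the miR-122 and let-7 loci (non-target reads), so 1 read stands for 2.05 RPM in TuD-let-7, 0.689 in TuD-miR-122 and 0.726 in mock. Scaling to all reads instead multiplies every TuD-let-7 to mock ratio by 0.591, a shift of -0.76 on the log2 scale that non-target miRNAs share. The 4 hepatocyte miRNAs listed (miR-122-5p, miR-192-5p, miR-194-5p and miR-148a-3p) were present in every library and made up 69.2% of miRNA reads in TuD-let-7, 38.1% in TuD-miR-122 and 43.8% in mock. Most of these reads were miR-122-5p, which one of the decoys targets; the other 3 made up 4.60% in TuD-let-7, 5.51% in TuD-miR-122 and 6.11% in mock. Summed miRNAs of skeletal muscle stood at 213 RPM in TuD-let-7, 921 in TuD-miR-122 and 9740 in mock. Those of pancreas stood at 162 RPM in TuD-let-7, 1612 in TuD-miR-122 and 119 in mock; no listed muscle or pancreas miRNA was at 0. The libraries thus differed in markers of other tissues as well, and the part this has in the let-7 values was not tested. In bulk tissue, fewer cells of a type and less RNA per cell cannot be told apart.

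The first question is whether the guides were fewer in the presence of the let-7 decoy, since the study's design concerned the stability and integrity of miRNAs under decoys. let-7f-5p and let-7a-5p had the lowest ratios, let-7c-5p was intermediate and let-7e-5p was closest to mock. Summed, the 4 guides made up 1.26% of miRNA reads in TuD-let-7, 7.61% in TuD-miR-122 and 6.73% in mock. On the RPM scale the sum in TuD-let-7 was 0.295 of mock (95% counting interval 0.291 to 0.299), or 3.39-fold lower, and 0.281 of TuD-miR-122 (0.277 to 0.285).

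let-7f-5p, the most abundant of the 4 in each library, had 14015 RPM in TuD-let-7, 61482 in TuD-miR-122 and 61136 in mock. It was 4.36-fold lower in TuD-let-7 than in mock, at 0.229 of it (0.224 to 0.235), and ranked 22nd among the miRNAs of TuD-let-7 but 3rd in TuD-miR-122 and 4th in mock. let-7a-5p, the guide without a differing base, had 11565 RPM in TuD-let-7, 43857 in TuD-miR-122 and 42862 in mock. It was 3.71-fold lower than in mock, at 0.270 (0.2625 to 0.277). Both guides were thus set apart in TuD-let-7, while the TuD-miR-122 and mock libraries lay close together, with ratios of TuD-miR-122 to mock of 1.01 (0.996 to 1.02) for let-7f-5p and 1.02 (1.01 to 1.03) for let-7a-5p.

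let-7c-5p, whose gene Mirlet7c-1 lies in a cluster with miR-99a, had 12631 RPM in TuD-let-7, 31642 in TuD-miR-122 and 27055 in mock. Its level in TuD-let-7 was 0.467 of mock (0.454 to 0.480) and 0.399 of TuD-miR-122 (0.389 to 0.410). let-7e-5p, encoded beside miR-99b and miR-125a, was the rarest, with 794 RPM (387 reads) in TuD-let-7, 1922 RPM (2792 reads) in TuD-miR-122 and 1214 RPM (1672 reads) in mock. For let-7e-5p the size of the difference turned on the library it was set against. It was 0.654 of mock (0.584 to 0.731) but 0.413 of TuD-miR-122 (0.370 to 0.459), and TuD-miR-122 held 1.58 times as much of it as mock (1.49 to 1.68).

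**Figure D1:**
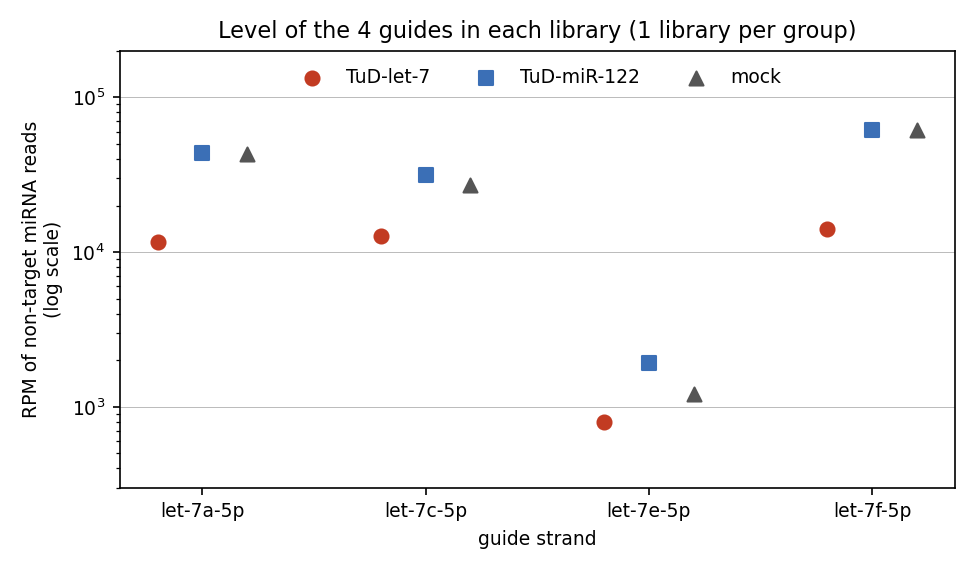
Level of each of the 4 guides in the 3 libraries, in RPM on a log axis; each point is 1 library and there are no error bars. For let-7a-5p and let-7f-5p the TuD-miR-122 and mock points lie side by side and the TuD-let-7 point lies well below, whereas let-7e-5p differs between the TuD-miR-122 and mock libraries too.

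By the rule used for non-target miRNAs (at least 100 reads over both libraries and an interval wholly below 0.5), 3 of the 4 guides were lower in TuD-let-7 than in mock, let-7a-5p, let-7c-5p and let-7f-5p. Of 193 non-target miRNAs, 4.15% were. Scaled to all reads, let-7e-5p was at 0.386 of mock (0.345 to 0.432) and its interval lay below 0.5 too. The median non-target ratio was then 0.581, and the share of non-target miRNAs that passed on that scale was not counted. Set against TuD-miR-122, all 4 guides passed, against 17.4% of 213 non-target miRNAs, so that comparison has a broader background. Between TuD-miR-122 and mock none of the 4 guides passed in either direction; 4.85% of 227 non-target miRNAs were lower there and 13.7% were higher, with an interval wholly above 2. The median ratio of the non-target miRNAs was 0.983 for TuD-let-7 over mock, and 7 of the 193 had a ratio below that of let-7f-5p.

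Within the TuD-let-7 library the mix of the 4 guides was different. let-7c-5p took 32.4% of their reads in TuD-let-7, 22.8% in TuD-miR-122 and 20.5% in mock. let-7f-5p took 35.9% in TuD-let-7, 44.3% in TuD-miR-122 and 46.2% in mock. let-7a-5p took 29.65% in TuD-let-7, 31.6% in TuD-miR-122 and 32.4% in mock. let-7e-5p took 2.03% in TuD-let-7, 1.38% in TuD-miR-122 and 0.918% in mock. let-7c-5p and let-7e-5p thus had larger parts in TuD-let-7 than in either other library, and let-7f-5p and let-7a-5p smaller ones. There were 1.09 reads of let-7c-5p per read of let-7a-5p in TuD-let-7 and 0.631 in mock, a ratio of ratios of 1.73 (1.67 to 1.80) that needs no scale between libraries. The same ratio of ratios was 2.42 (2.16 to 2.72) for let-7e-5p and 0.850 (0.819 to 0.881) for let-7f-5p. In TuD-let-7, let-7f-5p was thus further below its mock level than let-7a-5p was, by more than counting error.

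The other 5 let-7 guides differ from let-7a-5p at 2 to 4 bases. Summed, they stood at 0.562 of mock (0.554 to 0.570) and 0.587 of TuD-miR-122, against 0.295 and 0.281 for the 4 guides nearest to let-7a-5p. The 4 guides made up 44.9% of all let-7 guide reads in TuD-let-7, 63.1% in TuD-miR-122 and 60.9% in mock. The number of differing bases did not order the single guides: miR-98-5p (0.362, 0.308 to 0.424), let-7d-5p (0.401) and let-7g-5p (0.441), each with 2 differences, were below let-7e-5p with 1. let-7b-5p (0.760), with 2, and let-7i-5p (0.855), with 4, were nearest to mock.

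**Figure D2:**
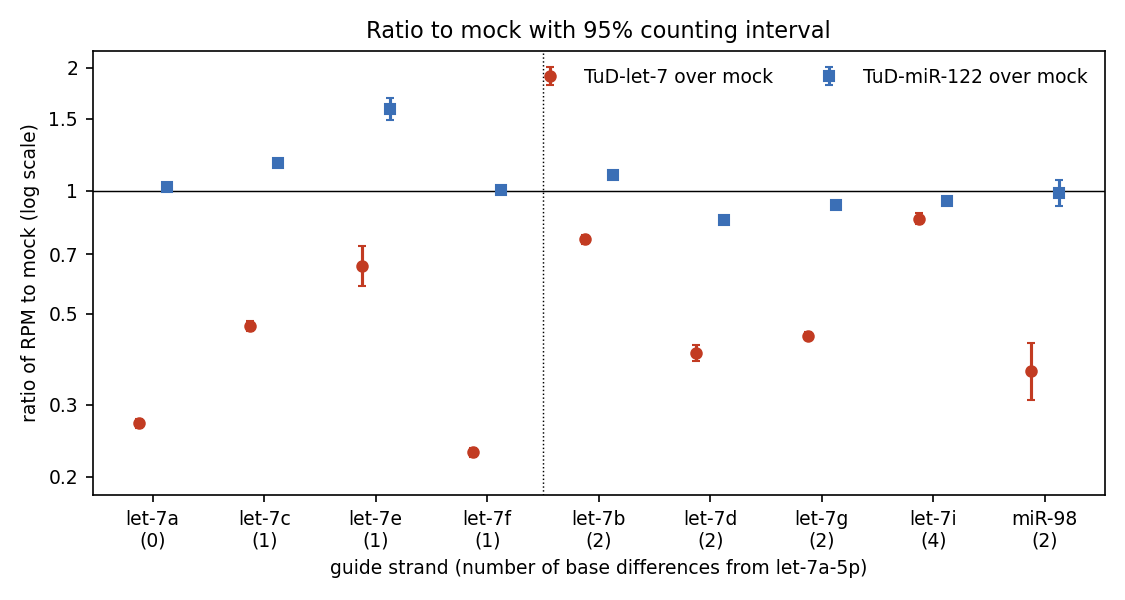
Ratio of RPM to mock for the 9 let-7 guides in the TuD-let-7 and TuD-miR-122 libraries, on a log axis with 95% counting intervals; the number of bases that differ from let-7a-5p is in brackets and the dotted line parts the 4 nearest guides from the other 5. In TuD-let-7 the 9 ratios run from 0.229 for let-7f-5p to 0.855 for let-7i-5p and do not follow the number of differences.

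The second question is whether the 3′ ends of the remaining guides were intact. Reads were split into a part that matches the precursor and a tail of up to 5 nt that does not, and those matching over fewer than 21 nt were called trimmed. In TuD-let-7 more of the guides' reads had tails, mostly of adenosine, and more were trimmed, with a different balance in each guide. Of the 4 guides summed, 35.5% of reads were tailed in TuD-let-7 (exact Clopper-Pearson 95% interval in each library within 1 point), 15.3% in TuD-miR-122 and 18.2% in mock. Trimmed reads made up 17.5% in TuD-let-7, 4.39% in TuD-miR-122 and 4.27% in mock. Intact reads, untailed and of 21 nt or more, made up 58.5% in TuD-let-7, 82.8% in TuD-miR-122 and 79.6% in mock. The level of these intact reads in TuD-let-7 was 4.62-fold below mock, a larger gap than the 3.39-fold of all forms.

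let-7c-5p had the highest tailed share of the 4 guides in TuD-let-7 and the largest differences from mock in tailed and in trimmed share. Of its reads 45.7% were tailed in TuD-let-7, 20.3% in TuD-miR-122 and 25.5% in mock. Trimmed reads made up 24.3% in TuD-let-7, 3.81% in TuD-miR-122 and 4.88% in mock. Trimmed reads that also carried a tail made up 20.3% of let-7c-5p in TuD-let-7, 1.94% in TuD-miR-122 and 2.57% in mock. The level of this form in TuD-let-7 was 3.69 times mock (3.39 to 4.02), and 2.18 times mock when scaled to all reads.

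let-7a-5p was also trimmed, but fewer of its trimmed reads carried a tail. Tailed reads made up 30.96% of let-7a-5p in TuD-let-7, 13.4% in TuD-miR-122 and 17.3% in mock. Its trimmed share was 18.9% in TuD-let-7, 3.11% in TuD-miR-122 and 3.38% in mock. Trimmed reads without a tail were 9.95% of let-7a-5p in TuD-let-7 and 2.05% in mock, whereas those of let-7c-5p were 3.96% in TuD-let-7 and 2.31% in mock. The level of trimmed let-7a-5p was 1.51 times mock (1.40 to 1.62), but 0.890 of mock when scaled to all reads.

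let-7f-5p was tailed without much trimming. Its tailed share was 29.8% in TuD-let-7, 13.4% in TuD-miR-122 and 15.3% in mock. Its trimmed share was 9.50% in TuD-let-7, 5.29% in TuD-miR-122 and 4.42% in mock. Trimmed let-7f-5p was below mock in level, at 0.492 (0.452 to 0.535). let-7e-5p, with 387 reads in TuD-let-7, had a tailed share of 38.0% there, 35.9% in TuD-miR-122 and 36.0% in mock. Its trimmed share was 30.2% in TuD-let-7 (25.7 to 35.1), 14.7% in TuD-miR-122 and 14.4% in mock. Its tails were thus about as frequent in all 3 libraries, whereas its trimmed share stood apart. The bases of its tails also differed, as given below. Inserts with 16 to 18 matching nt can be given to let-7e-5p and let-7f-5p but not to let-7a-5p or let-7c-5p. At 19 and 20 matching nt, which all 4 guides can have, the share was 24.3% in TuD-let-7 and 4.88% in mock for let-7c-5p, and 18.9% in TuD-let-7 and 3.38% in mock for let-7a-5p. It was 12.7% in TuD-let-7 (9.52 to 16.4) and 4.73% in mock for let-7e-5p, and 7.14% in TuD-let-7 (6.54 to 7.78) and 2.90% in mock for let-7f-5p. Each guide was thus above mock at these lengths.

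**Figure D3:**
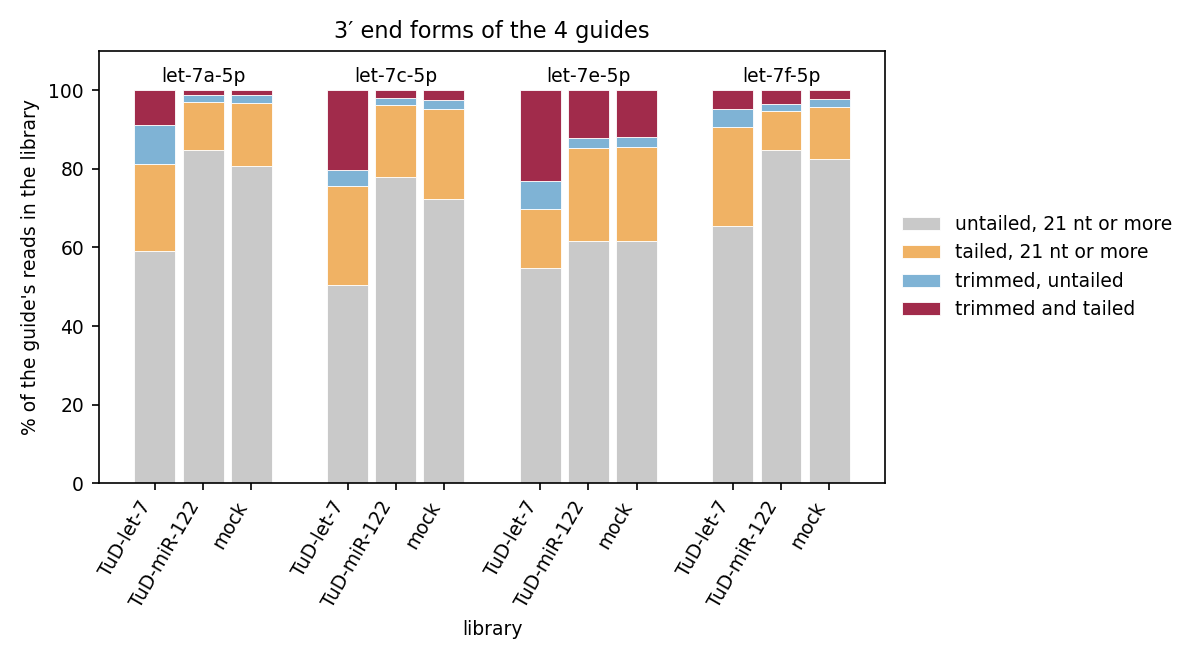
Share of each guide's reads in 4 forms that add to 100%, for TuD-let-7, TuD-miR-122 and mock; trimmed means a matching part under 21 nt. For every guide the untailed form of 21 nt or more takes a smaller share in TuD-let-7 than in the other 2 libraries; in TuD-let-7 the trimmed and tailed form is largest in let-7e-5p and let-7c-5p, and let-7f-5p differs mainly in tailed reads of full length.

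Against mock, 3 of the 4 guides had a tailed share higher by 10 points or more (let-7a-5p, let-7c-5p and let-7f-5p), as did 14.3% of the 49 non-target miRNAs that reached 1000 reads in each library. For trimming, 3 of the 4 (let-7c-5p, let-7a-5p and let-7e-5p) did, against 18.4% of the 49. The difference of let-7e-5p was 15.8 points, and 10.1 points with matches of at least 19 nt only. These calls depend on the definitions. Without tails of a single A the tailed differences were 6.63 points for let-7a-5p, 8.43 for let-7c-5p and 7.87 for let-7f-5p, so all 3 calls were lost. With trimming defined as below 20 nt, let-7a-5p (6.31 points) and let-7c-5p (4.23 points) lost the call and let-7e-5p (11.3 points) passed. That definition leaves let-7a-5p and let-7c-5p only parts of 19 nt, since shorter parts cannot be given to them. let-7e-5p keeps its 68 reads of 16 to 18 nt in TuD-let-7, so the guides are not treated alike. Non-target miRNAs were not counted under either alternative definition, so these changes in calls have no background share beside them. For tails of A only, 3 of the 4 (let-7a-5p, let-7c-5p and let-7f-5p) had a share higher than mock by 10 points or more, against 0% of the 49. Set against TuD-miR-122 the same guides passed each rule, with 18.4%, 24.5% and 0% of non-target miRNAs passing for tails, trimming and tails of A only. let-7e-5p had fewer than 1000 reads in TuD-let-7 and would not have entered the non-target set. The median non-target difference from mock was 2.69 points for tails and -0.11 points for tails of A only, with a highest value of 5.16 points for the A-only tails. The 3′ forms of the other let-7 guides are not given here, so these shares do not set the 4 guides apart from them.

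Adenosine made up most of the excess tails. Tails of A only stood on 27.9% of the summed reads in TuD-let-7, 10.2% in TuD-miR-122 and 13.7% in mock, so they account for 14.3 of the 17.2 points by which the tailed share exceeded mock. By guide the A-only share was 35.9% in TuD-let-7 and 17.5% in mock for let-7c-5p, and 26.5% in TuD-let-7 and 13.8% in mock for let-7a-5p. It was 22.6% in TuD-let-7 and 11.96% in mock for let-7f-5p, and 15.5% in TuD-let-7 and 9.27% in mock for let-7e-5p. For all 4 guides the A-only share was thus higher in TuD-let-7 than in mock, and in both libraries it was lowest in let-7e-5p. Longer runs of A differed more: tails of 3 to 5 A stood on 1.39% of summed reads in TuD-let-7 and 0.219% in mock, and their level was 1.87 times mock (1.59 to 2.19), or 1.10 times mock scaled to all reads. let-7a-5p alone had 103 such reads in TuD-let-7 and 76 in mock, a level of 3.83 times mock (2.82 to 5.22), or 2.26 times mock scaled to all reads.

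The share of A-tailed reads depended on where the guide ended. Of let-7c-5p reads with 20 matching nt, 64.3% carried only A in TuD-let-7, 28.4% in TuD-miR-122 and 28.5% in mock, whereas with 22 matching nt the shares were 19.4% in TuD-let-7, 14.3% in TuD-miR-122 and 19.2% in mock. let-7f-5p differed at full length, with 31.7% of reads at 22 matching nt A-tailed in TuD-let-7, 11.7% in TuD-miR-122 and 15.7% in mock. It also differed on shortened ends. At 20 nt its share was 18.5% in TuD-let-7 (14.7 to 22.9), 8.47% in TuD-miR-122 and 8.03% in mock, at 19 nt 40.5% in TuD-let-7 (31.7 to 49.8; 121 reads), 16.5% in TuD-miR-122 and 10.5% in mock. let-7a-5p differed at both lengths as well. At 22 nt its share was 29.6% in TuD-let-7, 13.0% in TuD-miR-122 and 17.6% in mock, at 20 nt 37.7% in TuD-let-7, 17.4% in TuD-miR-122 and 13.9% in mock. Relative to mock, the A-only share was thus higher on shortened ends in all 3 guides, and on ends of 22 nt in let-7a-5p and let-7f-5p but hardly in let-7c-5p.

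**Figure D4:**
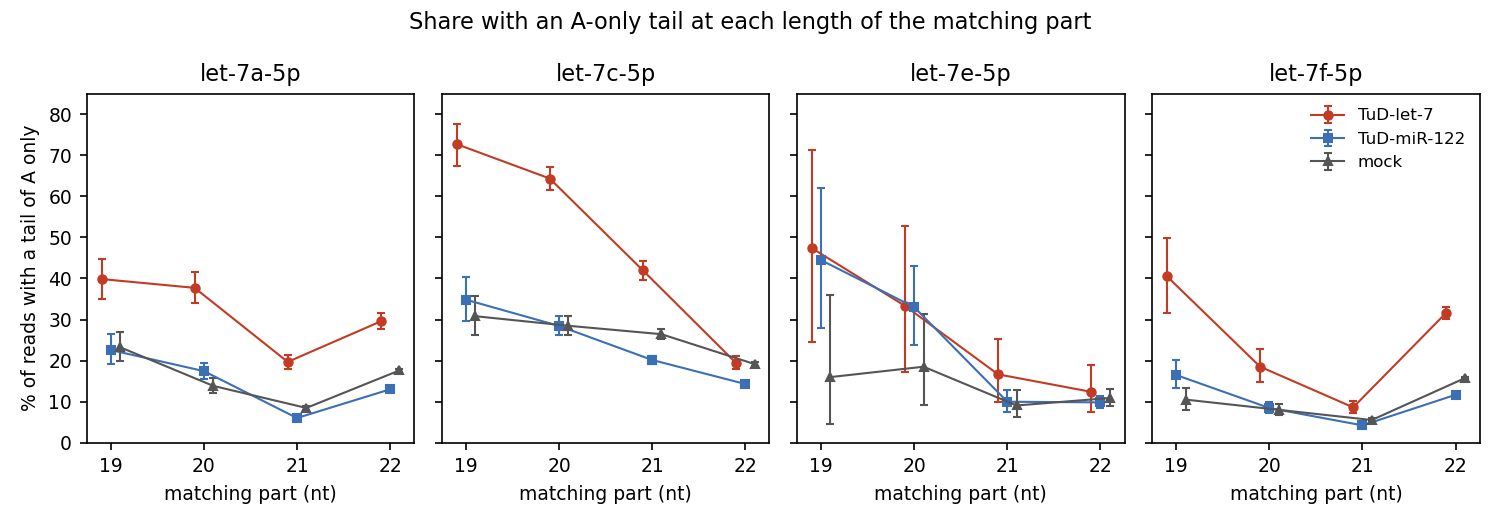
Share of reads with a tail of A only at matching parts of 19, 20, 21 and 22 nt, for each guide and library, with exact Clopper-Pearson 95% intervals. The TuD-let-7 line is highest at 19 and 20 nt in let-7c-5p (64.3% at 20 nt) and in let-7f-5p stands apart at 19 nt (40.5%) and 22 nt (31.7%); for let-7e-5p the intervals overlap.

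The inserts themselves show these ends. The 3 forms of let-7c-5p below are its full-length form and the A-tailed forms that are more abundant in TuD-let-7 than in mock, copied from the deposited reads with T for U and with the tail in capitals.
let-7c-5p, 22 nt: tgaggtagtaggttgtatggtt
let-7c-5p, 21 nt and A: tgaggtagtaggttgtatggtA
let-7c-5p, 20 nt and A: tgaggtagtaggttgtatggA

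The full-length form had 1957 reads in TuD-let-7, 22532 in TuD-miR-122 and 17061 in mock, a level 3.09-fold below mock. The form of 21 nt and A had 452 reads in TuD-let-7, 655 in TuD-miR-122 and 568 in mock, a level 2.25 times mock (1.98 to 2.55). The form of 20 nt and A had 548 reads in TuD-let-7, 306 in TuD-miR-122 and 305 in mock, at 5.08 times mock (4.404 to 5.86) and 5.33 times TuD-miR-122 (4.63 to 6.15). It was 8.90% of let-7c-5p in TuD-let-7 and 0.818% in mock, and more reads of it were counted in the shallowest library than in either of the others.

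For let-7a-5p the forms differ in length, and for let-7f-5p in an added A at full length. The commonest insert of let-7a-5p in TuD-let-7 was 1 base shorter than that in the other libraries, as the first 3 lines show; the fourth is the tailed form of let-7f-5p.
let-7a-5p, 21 nt: tgaggtagtaggttgtatagt
let-7a-5p, 22 nt: tgaggtagtaggttgtatagtt
let-7a-5p, 23 nt: tgaggtagtaggttgtatagttt
let-7f-5p, 22 nt and A: tgaggtagtagattgtatagttA

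The 21-nt form of let-7a-5p had 1649 reads in TuD-let-7, 11789 in TuD-miR-122 and 9950 in mock. This is 29.2% of its reads in TuD-let-7, 18.5% in TuD-miR-122 and 16.9% in mock (16.5 to 17.2). The 22-nt form had 1485 reads in TuD-let-7, 34362 in TuD-miR-122 and 30847 in mock, the 23-nt form 163 in TuD-let-7, 7184 in TuD-miR-122 and 6262 in mock. Set on the RPM scale, the gap to mock widened with length: the untailed form of 20 nt was at 0.972 of mock (0.857 to 1.10), that of 21 nt 2.14-fold lower, that of 22 nt 7.35-fold lower and that of 23 nt 13.6-fold lower. let-7c-5p had the same order, from 0.805 of mock at 20 nt to 5.50-fold lower at 23 nt, but let-7f-5p was 6.63-fold lower at 22 nt and 6.24-fold lower at 23 nt, with overlapping intervals. The A-tailed 22-nt form of let-7f-5p had 1034 reads in TuD-let-7, 6516 in TuD-miR-122 and 8336 in mock. It was 15.1% of let-7f-5p in TuD-let-7, 7.30% in TuD-miR-122 and 9.90% in mock.

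**Figure D5:**
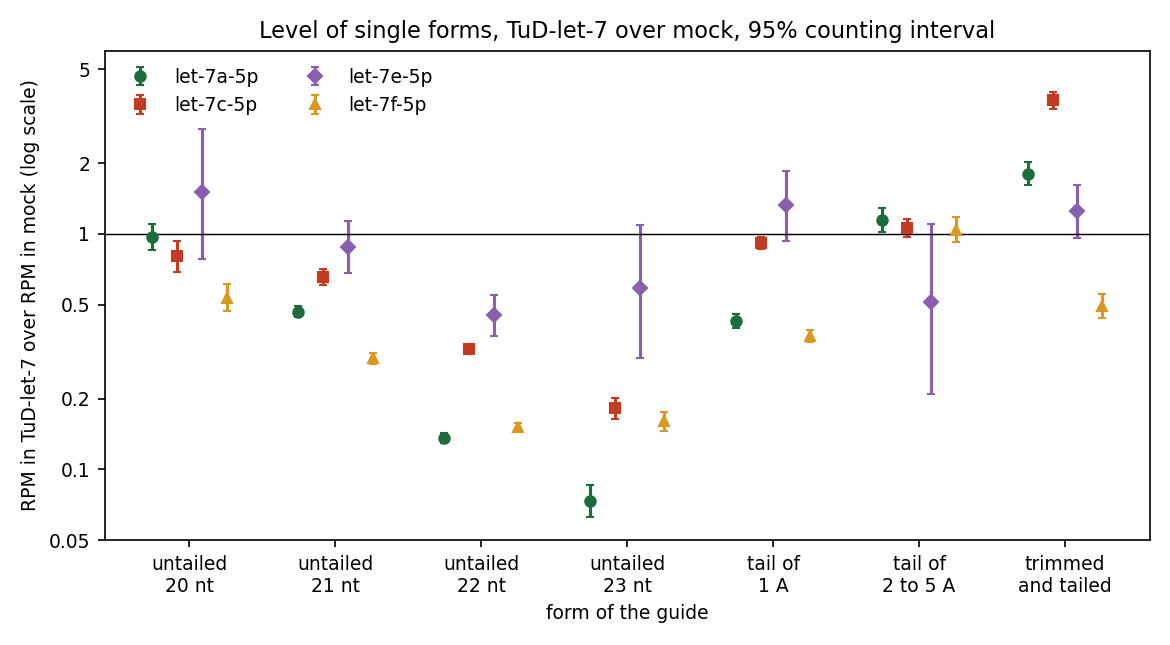
Level of single forms in TuD-let-7 over mock for the 4 guides, on a log axis with 95% counting intervals; the line at 1 marks equal RPM. Untailed forms of 22 and 23 nt are farthest below 1, from 0.0735 for 23-nt let-7a-5p, and of the forms plotted the trimmed and tailed form of let-7c-5p is highest at 3.69.

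The base at position 23 tells an added A from a longer end cut from the precursor. In let-7a-5p, let-7c-5p and the Mirlet7f-2 copy of let-7f the precursor continues with T, so T there counts as matching and A as a tail. Of the 23-nt inserts of let-7a-5p, 71.6% ended in A in TuD-let-7, 39.3% in TuD-miR-122 and 48.9% in mock. For let-7f-5p the share was 68.1% in TuD-let-7, 43.1% in TuD-miR-122 and 50.2% in mock, for let-7c-5p 45.7% in TuD-let-7, 29.7% in TuD-miR-122 and 36.9% in mock. This share was highest in TuD-let-7 for each of the 3, but also depends on the T form. Of all let-7a-5p reads, 22 nt and A made up 8.24% in TuD-let-7, 7.73% in TuD-miR-122 and 10.6% in mock. For let-7c-5p this was 5.21% in TuD-let-7, 7.31% in TuD-miR-122 and 9.30% in mock. Of the 3, only let-7f-5p had a larger share of this form in TuD-let-7 than in mock (15.1% and 9.90%). The form with T made up 2.89% of let-7a-5p in TuD-let-7 and 10.6% in mock, for let-7c-5p 5.94% and 15.3%. In let-7e-5p a T at position 23 is a tail, and inserts of 22 nt and T numbered 9 in TuD-let-7, 270 in TuD-miR-122 and 154 in mock. Tails of only T made up 3.62% of let-7e-5p in TuD-let-7 (1.99 to 6.00), 12.4% in TuD-miR-122 and 11.8% in mock, so the like total tailing of let-7e-5p hides fewer tails of T and more of A.

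The reads that could belong to either let-7a-5p or let-7c-5p bear on both. They numbered 686 in TuD-let-7, 2224 in TuD-miR-122 and 1065 in mock. As a share of the reads of both guides with them, this is 5.49% in TuD-let-7, 1.99% in TuD-miR-122 and 1.09% in mock. Counting them in, 25.997% of let-7a-5p and let-7c-5p reads together were trimmed in TuD-let-7, 5.33% in TuD-miR-122 and 5.01% in mock. Without them the share was 21.7% in TuD-let-7, 3.41% in TuD-miR-122 and 3.96% in mock. The reads counted in include 22-nt inserts with a changed base at position 19, which read as 18 matching nt with a tail of 4 nt. The commonest such base had 127 reads in TuD-let-7 (T), 666 in TuD-miR-122 (C) and 113 in mock (C). The trimmed share with them thus holds inserts of full length. Among the reads counted in, 144 in TuD-let-7, 59 in TuD-miR-122 and 34 in mock had 16 matching nt and fitted let-7b-5p equally well. The share with them may thus hold let-7b-5p reads. Of these 144 reads, 98.6% were tailed, and the part of single-base changes in them was not tested. A let-7c-5p read cut to 18 nt with an added A also equals the first 19 nt of let-7a-5p. The 19-nt matching parts given to let-7a-5p (409 reads in TuD-let-7, 527 in TuD-miR-122 and 559 in mock) may hold such reads.

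The passenger strands come from the same precursors but have other sequences, and do not carry the guide's seed. Passengers of Mirlet7a-1 and Mirlet7c-2 are identical over the part compared and were counted together, with 155 reads in TuD-let-7, 472 in TuD-miR-122 and 532 in mock, a level of 0.823 of mock (0.684 to 0.986) and 0.978 of TuD-miR-122. The Mirlet7f-2 passenger had 37 reads in TuD-let-7, 146 in TuD-miR-122 and 131 in mock, at 0.798 of mock (0.538 to 1.16). The Mirlet7f-1 passenger had 9 reads in TuD-let-7, 36 in TuD-miR-122 and 55 in mock, at 0.462 (0.201 to 0.943), and the let-7e passenger 3 in TuD-let-7, 13 in TuD-miR-122 and 12 in mock. Summed, passengers stood at 0.789 of mock (0.673 to 0.923) and 0.911 of TuD-miR-122 (0.775 to 1.07), far closer to the other libraries than the guides. Each passenger read was matched by 93.2 guide reads in TuD-let-7 (81.2 to 108), 302 in TuD-miR-122 (280.3 to 327) and 250 in mock (232 to 269), a count that needs no scale between libraries.

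Neighbours in the same transcripts were also listed: miR-99a-5p, miR-99b-5p, miR-100-5p, miR-125a-5p and miR-125b-5p. None was as low in TuD-let-7 as any of the 4 guides. The ratios to mock ran from 0.895 (0.823 to 0.973) for miR-125a-5p, encoded with let-7e, to 1.49 (1.44 to 1.53) for miR-99a-5p, encoded with let-7c-1, and scaled to all reads from 0.529 to 0.879. miR-99b-5p, beside let-7e, was at 1.43 times mock in TuD-miR-122 (1.30 to 1.57), and miR-125a-5p at 1.11 times mock (1.05 to 1.18), where let-7e-5p was at 1.58.

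Among 108 non-target miRNAs that had 500 reads or more in mock, the pattern nearest to that of the summed guides (smallest distance over the log2 ratios of both decoy libraries to mock) was that of miR-27a-3p. It had 797 reads in TuD-let-7, 5517 in TuD-miR-122 and 5338 in mock, a level of 0.422 of mock in TuD-let-7. miR-374b-5p (0.452) and miR-16-5p (0.502) came next. All 3 lay nearer to mock in TuD-let-7 than the 0.295 of the summed guides.

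Single-base changes differed between the libraries and touch the values above; whether they arose in sequencing was not tested. Among 22-nt inserts of let-7a-5p, the change G11T stood in 14.6% in TuD-let-7 (254 reads beside 1485 exact ones), 0.0436% in TuD-miR-122 and 0.0194% in mock. It was at 10.8% to 13.0% in the other 3 guides in TuD-let-7. Such inserts match no precursor exactly and were not counted, so the exact levels in TuD-let-7 leave out more reads than those of the other libraries. Allowing 1 mismatch added 28.1% to the reads of let-7a-5p in TuD-let-7, 4.44% in TuD-miR-122 and 5.63% in mock. It added 24.7% in TuD-let-7, 5.12% in TuD-miR-122 and 6.78% in mock to let-7c-5p, and 29.0% in TuD-let-7, 4.69% in TuD-miR-122 and 6.35% in mock to let-7f-5p. let-7e-5p gained most, 51.9% in TuD-let-7, 20.6% in TuD-miR-122 and 29.6% in mock. Non-target miRNA reads grew by 22.8% in TuD-let-7, 7.85% in TuD-miR-122 and 6.97% in mock. With the mismatch, the level in TuD-let-7 was 0.285 of mock for let-7a-5p and 0.242 of mock for let-7f-5p.

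A base change near the 3′ end is read as a trimmed and tailed molecule. In TuD-miR-122, 1134 inserts of let-7f-5p, or 1.27% of it, carried A19C and were counted as 18 matching nt with a tail of 4 nt. In TuD-let-7 the change A17C stood in 2.04% to 4.27% of the 22-nt inserts of the 4 guides, against 0.0486% to 0.142% in mock. At 22 nt such inserts exceed the tail limit and were not counted, but at 21 nt they read as 16 matching nt with a tail of 5 nt. For let-7f-5p these numbered 46 in TuD-let-7, 8 in TuD-miR-122 and 7 in mock, out of 649 trimmed reads in TuD-let-7, 4720 in TuD-miR-122 and 3725 in mock. In let-7e-5p the matching parts of 16 to 18 nt made up 68 of 387 reads in TuD-let-7 and 162 of 1672 in mock, and its trimmed shares rest partly on them, whereas let-7a-5p and let-7c-5p cannot be told apart at these lengths and have none. Exchange between guides can be estimated from changes that turn the base of a guide into that of another. Inserts with a base of neither guide do not measure it. At position 19, inserts with the commonest base of neither let-7a-5p nor let-7c-5p equalled 6.49% of 22-nt let-7c-5p in TuD-let-7 and 0.662% in mock. Against 22-nt let-7a-5p they came to 8.55% in TuD-let-7 and 0.366% in mock. In TuD-let-7 this base was T, whereas let-7f-5p, with A at position 19, had A19T there in 1 read beside 2509 exact ones. At position 12, inserts with the commonest base of neither let-7a-5p nor let-7f-5p came to 4.31% of let-7a-5p in TuD-let-7 and 0.775% in mock. A19G at its let-7f-5p rate would give 0.272% of let-7c-5p in TuD-let-7 and 0.904% in mock. The part of exchange in the ratios was not tested. The change T9G, at the rate seen in let-7c-5p and let-7f-5p, would turn let-7a-5p reads into 4.19% to 4.70% of the 22-nt let-7e-5p reads in TuD-let-7 and 4.75% to 11.03% of those in mock.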

How the data were processed

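Liver small RNAs of 18 to 30 nt were sequenced in 3 libraries, 1 each for TuD-let-7, TuD-miR-122 and mock; per the labels' protocols total RNA was extracted with a mirVana kit and the short RNAs were gel-purified. The deposited values are raw read counts, 1 for each distinct insert sequence, per the labels and the files. The submitters' adapter removal, filters, aligner and build: not given in the sources used here. Reads carry no molecular identifiers here, so PCR copies count separately.

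Inserts were assigned to the arms of 1174 miRNA precursors (GENCODE release 21 for mouse, GRCm38) when they started at the arm's commonest 5′ end and matched at least 16 nt, with a tail of up to 5 nt; the longest match was kept, and reads that fitted several miRNAs equally were kept apart. RPM were computed on 487681 (TuD-let-7), 1452394 (TuD-miR-122) and 1377695 (mock) non-target miRNA reads, so a floor of 3 reads is 6.15, 2.07 and 2.18 RPM. Ratios have exact conditional-binomial, shares exact Clopper-Pearson and ratios of ratios Wald intervals, all at 95%; they cover counting error only. No test was made with 1 library per group.

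The 4 guides and the lists were chosen with earlier results of these data known. Named are the 4 guides, their passengers, the other let-7 guides, inserts among the 4 commonest of mock or TuD-let-7, the 3 miRNAs nearest in pattern and the co-transcribed miRNAs; inserts of let-7a-5p, let-7c-5p and let-7f-5p printed in full are a choice among these. Alternatives changed the scale, the match and tail lengths, starts, mismatches, inserts read once, shared reads and the definitions of tail and trimming. The assignment code was tested on simulated data. RefSeq sequences matched all 9 let-7 guides. Python 3.11, numpy 2.4.6, scipy 1.17.1 and pandas 2.3.3 were used.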

Additional observations from a re-analysis of the deposited data

How the results depend on the processing

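No value changed direction among the 8 main ones, and the 4 guides kept their order against mock (let-7f-5p, let-7a-5p, let-7c-5p, let-7e-5p) under each alternative. No paired analysis was possible because each group had 1 library and no result comes from a test. The scale moved the ratios most. For TuD-let-7 over mock, scaling to all inserts gave 0.159 for let-7a-5p, 0.276 for let-7c-5p, 0.386 for let-7e-5p and 0.135 for let-7f-5p, scaling to all miRNA reads 0.171, 0.296, 0.415 and 0.145, and median-of-ratios size factors 0.260 for let-7a-5p, 0.450 for let-7c-5p and 0.221 for let-7f-5p. Matches of at least 19 nt gave 0.281, 0.487 and 0.237 for let-7a-5p, let-7c-5p and let-7f-5p, splitting shared reads 0.281 and 0.487 for let-7a-5p and let-7c-5p, 1 internal mismatch 0.285 and 0.242 for let-7a-5p and let-7f-5p, and tails of at most 2 nt 0.236 for let-7f-5p.

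For the 4 guides summed, TuD-let-7 over TuD-miR-122 was 0.168 on all inserts, 0.165 on all miRNA reads, 0.293 with matches of at least 19 nt, 0.3004 with a mismatch, 0.288 with tails of at most 2 nt and 0.287 with shared reads split. TuD-miR-122 over mock was 1.04, 1.13, 1.01 (median-of-ratios) and 1.03 (mismatch). The difference in tailed share from mock was 15.9 points with tails of at most 2 nt, 18.8 with shared reads split, 14.3 with tails of A only and 8.72 without tails of a single A; that in trimmed share was 12.6, 15.3 and, below 20 nt, 4.16 points. The tailed difference of let-7e-5p, 1.98 points, was -3.25 with matches of at least 19 nt, -2.86 without inserts read once, -0.19 with tails of at most 2 nt and -4.82 without tails of a single A. The cause of these shifts was not tested. Depth limits let-7e-5p and the passengers most, with 387 and 204 reads in TuD-let-7.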
